A study of Danio rerio with 4 samples.

Results

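Cytochrome P450 enzymes are heme-containing monooxygenases that insert an oxygen atom into their substrates. Members of the cyp2, cyp3 and cyp4 families oxidise drugs, pollutants, fatty acids and signalling lipids, much of this in the liver and gut. Others make or degrade cholesterol, bile acids, steroid hormones, vitamin D and retinoic acid, each in its own tissue. The cytochrome P450 genes described here are all rows whose gene symbol begins with cyp and a digit, without the 5 genes of the cyp1 family, the classical targets of the aryl hydrocarbon receptor. The rule gave 81 gene IDs with 77 different symbols, out of 32520 distinct gene IDs. Of these 81, 79 are annotated as protein-coding and 2, cyp2aa6 and cyp19a1b, as unprocessed pseudogenes.

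The RNA came from whole zebrafish larvae (Danio rerio), for which the labels name no strain, sex or genotype. Control larvae were untreated, and larvae of the PM2.5 group received 12000000 smog particles between 72 and 120 hours after fertilization. PM2.5 is the fraction of airborne particles small enough to be inhaled deeply. Each group had 2 libraries, with RNA from 5 to 7 larvae per group, and the series title asks about damage to the glomerulus. Whether replicate libraries stem from different clutches or exposures is not stated, so p-values here measure only library-to-library spread, which may be technical. Levels are in TPM, read numbers per unit of gene length expressed as a share of the whole library, so levels of different genes can be compared.

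Whole larvae mix all tissues, and fewer cells of a type cannot be told apart from less RNA per cell. Markers of the tissues that hold most P450 genes were present. The hepatocyte list had 11 of 12 genes tested, with 1 higher, 2 lower and a median log2 fold change of -0.07. Its summed level was 3404 to 3529 TPM in controls and 3058 to 3197 TPM after exposure. The sum is weighted towards fabp10a, the most abundant gene of the list, whose mean went from 1566 to 1245 TPM. The enterocyte list had 8 of 8 tested, with 2 higher, 2 lower and a median of 0.07. Its summed levels were 1131 to 1172 TPM in controls and 1132 to 1153 TPM after exposure. In that sum a lower fabp2 (mean 449 to 343 TPM) stood against a higher apoa4b.2 (ENSDARG00000020866, 325 to 421 TPM). Over all tested genes limma called 8.46% higher and 2.62% lower (adjusted p under 0.05). Markers of steroid-making cells were low. Of 5 markers only star (mean 6.03 TPM) and fdx1b (1.62 TPM) reached a mean of 1 TPM. The corticotropin receptor gene mc2r was listed at 0 in 3 of 4 libraries.

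In controls the 81 genes summed to 1050 and 1065 TPM, and in exposed larvae to 885 and 874 TPM. The difference lay mostly in cyp3a65: without it the sums were 603 and 622 TPM in controls and 635 and 623 TPM in exposed larvae. A single gene, cyp3a65, was above a mean of 100 TPM, 16 were between 10 and 100 TPM and 46 between 1 and 10 TPM. The 18 genes below a mean of 1 TPM were not tested. The next most abundant genes were cyp2ad3 (84.8 ± 4.79 TPM in controls, SD, n = 2), cyp3c1 (42.5 ± 2.33 TPM) and one of the rows named cyp2y3 (36.9 ± 2.89 TPM). The cyp2 group as a whole held 35.0% of the summed P450 level in controls and 41.8% after exposure.

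**Figure D1:**
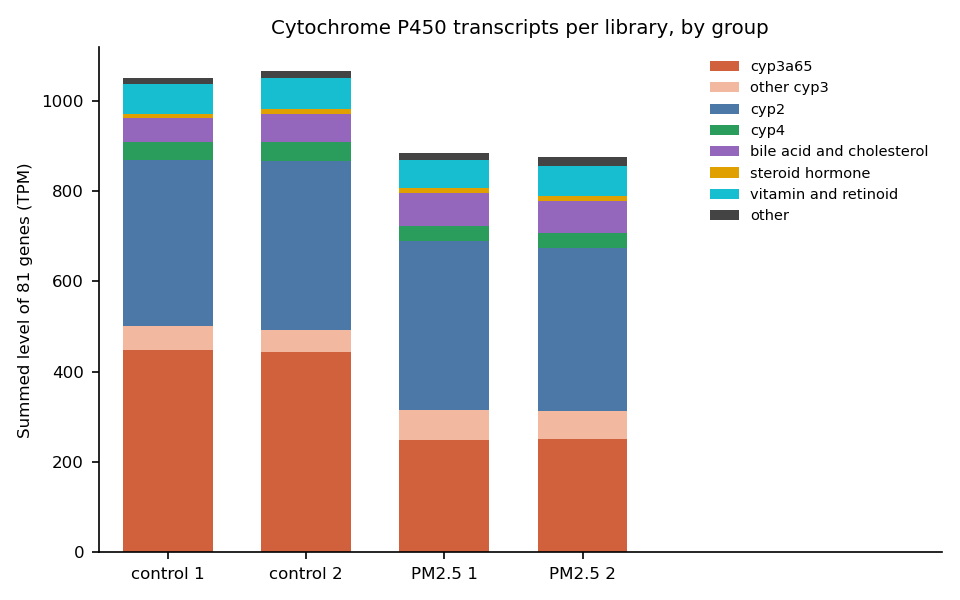
Stacked bars give the summed level in TPM (vertical axis, from 0) of all 81 cytochrome P450 genes in each of the 4 libraries, divided by group. The cyp3a65 segment is 447 and 443 TPM high in the controls and 249 and 251 TPM in the PM2.5 libraries, while the cyp2 segment lies between 360 and 376 TPM in every library.

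Among the 63 P450 genes that reached a mean of 1 TPM, exposure was associated with higher levels in 4 and lower levels in 4, with the adjusted p below 0.05 (limma on log2(TPM + 1), with Benjamini-Hochberg adjustment over the 20874 genes tested). The higher genes make up 6.35% of the 63, against 8.46% of all tested genes, and the lower genes 6.35%, against 2.62% of all tested genes. In either direction the share was 12.7% against 11.1%, so the family as a whole was called about as often as other genes. Without adjustment, 12 were higher and 8 lower at p under 0.05, where 19.3% of all tested genes were higher and 7.83% lower (27.2% in either direction). The median log2 fold change of the 63 genes was -0.04, and that of all tested genes 0.07. The control and PM2.5 libraries were fully apart in 17 genes that were higher after exposure (27%, against 36.6% of all tested genes) and in 17 that were lower (27%, against 19.7%), together 54.0% against 56.3%. The genes that fell were cyp3a65, a second row named cyp2y3, cyp2p9 and cyp24a1, and those that rose were cyp46a1.3, cyp17a1, cyp51 and cyp8b1.

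**Figure D2:**
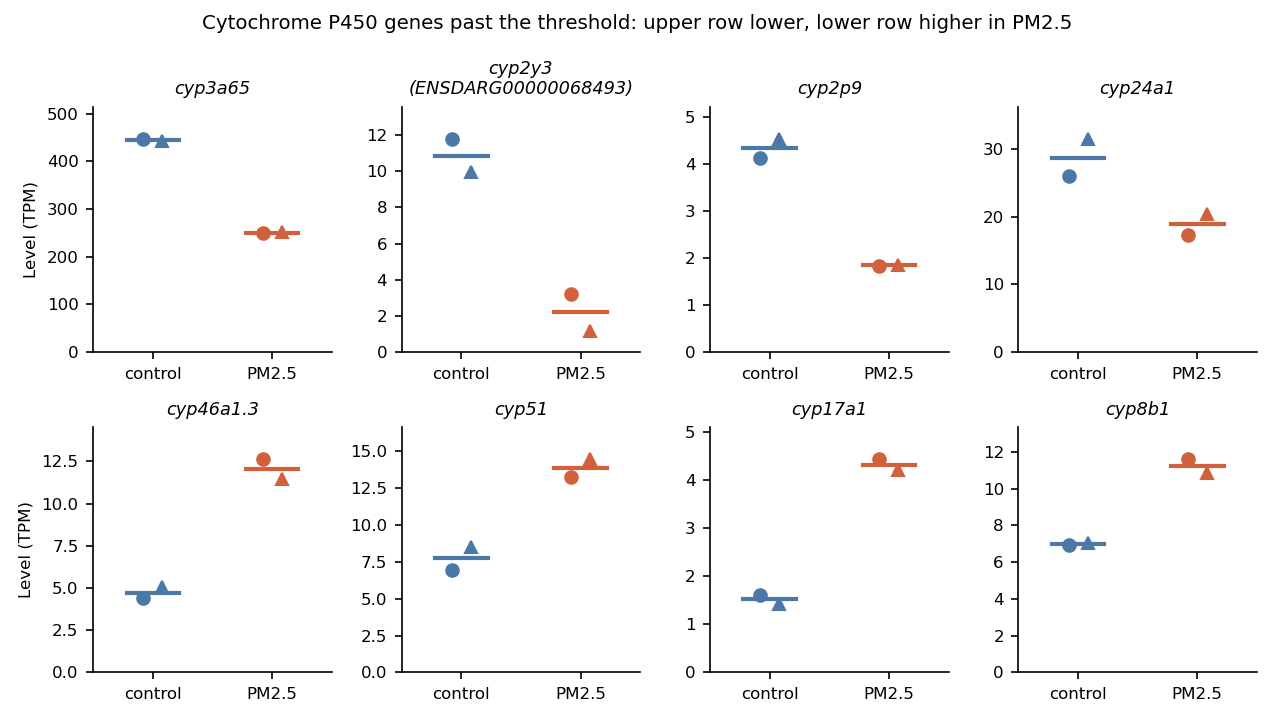
Each panel shows the level in TPM (vertical axis, from 0) of a P450 gene past the threshold, with circles for replicate 1, triangles for replicate 2 and a bar at the group mean (n = 2). In all 8 panels both PM2.5 libraries lie on the same side of both controls, and cyp3a65 has the smallest spread between replicates relative to its level.

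Leaving out a library made a large difference to which of these calls stood. Calls over all tested genes also became far fewer in these fits, as given with the other settings. The fall of cyp3a65 stood whichever of the 4 libraries was dropped, and that of the cyp2y3 row in 2 of these fits. The other 6 calls were lost in each of these fits, which keep a single library in an arm and take its spread from the other group. The directions of all 8 were the same in every one of these fits.

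Among genes of drug and fatty acid metabolism, cyp3a65 (ENSDARG00000103295, chromosome 1) is the zebrafish member of the CYP3A subfamily, which in fish and mammals oxidises a wide range of foreign compounds in gut and liver. Its control libraries read 447 and 443 TPM, and its exposed libraries 249 and 251 TPM. Both exposed libraries were far below both controls, and the replicates of a group differed little. Its mean was 1.78-fold lower after exposure, with a log2 fold change of -0.83 (SE 0.04, 95% confidence interval -0.94 to -0.72, adjusted p = 0.00029 in limma). Over the fits that left out 1 library, its adjusted p ran from 0.014 to 0.026. Its share of the summed P450 level was 42.6% and 41.6% in the controls and 28.2% and 28.7% in the exposed libraries. An exact permutation test of 2 against 2 libraries cannot go below p = 0.333 (two-sided), which is the value here.

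Gut and liver markers did not all move with cyp3a65. The enterocyte genes slc15a1b, a peptide transporter, and fabp2, the intestinal fatty acid binding protein, fell (log2 fold changes -1.07 and -0.39). Another pair of enterocyte genes rose, anpepb, a brush border aminopeptidase (0.84), and the apolipoprotein gene apoa4b.2 listed as ENSDARG00000020866 (0.37). The call of apoa4b.2 was lost after TMM-type rescaling (adjusted p = 0.073). The enterocyte gene vil1 was not past the threshold as deposited (-0.35, adjusted p = 0.10). After quantile normalization vil1 was called lower (0.048). The enterocyte list then had 2 higher and 3 lower, and after TMM-type rescaling 1 higher and 2 lower. Over all 20874 tested genes these fits called 1324 higher and 962 lower, and 1285 higher and 755 lower. The hepatocyte gene fabp10a fell from 1566 ± 104 to 1245 ± 116 TPM (log2 fold change -0.33, adjusted p = 0.039), a call lost in every fit that dropped a library and after quantile normalization (adjusted p = 0.091). The other called hepatocyte genes were serpina1, which fell (-0.35), and ttr, which rose (0.37). After TMM-type rescaling and quantile normalization ttr was still higher (0.29 and 0.24), but its call was lost (adjusted p = 0.060 and 0.064). Of 6 exocrine pancreas markers 4 were called lower, against 2.62% of all tested genes. The list median was -0.49, and summed levels were 1057 to 1085 TPM in controls and 742 to 768 TPM after exposure. The part of these tissues in the fall of cyp3a65 was not tested.

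The relatives of cyp3a65 in the fish-specific cyp3c subfamily were not called lower. The gene cyp3c1 was at 44.1 and 40.8 TPM in controls and at 53.4 and 50.2 TPM after exposure (log2 fold change 0.28, adjusted p = 0.096). The gene cyp3c4 was at 2.16 and 1.66 TPM in controls and at 3.88 and 4.67 TPM after exposure (0.86 on the log2 scale, interval 0.30 to 1.42, adjusted p = 0.069). For both genes the exposed libraries lay above the controls without passing. The row cyp3c3 (ENSDARG00000037873) was near 0 in change (0.03), and another row of that symbol, named cyp3c2 in the reference table of gene names, was listed at 0 in 3 of 4 libraries.

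The cyp2 group, with 42 rows, is the largest, and in zebrafish many of its genes lie side by side in the genome. Of the 33 tested, limma called 2 lower and none higher, against 2.62% and 8.46% of all tested genes. The median log2 fold change was -0.05. Without adjustment 3 of the 33 were higher and 4 lower, against 19.3% and 7.83% of all tested genes. The higher share was thus below and the lower share above that of all tested genes. Together they were a smaller share than the 27.2% of all tested genes in either direction. With voom on read numbers 1 was called higher and 2 lower, against 12.2% and 5.67% of all genes in that fit. The most changed was the row ENSDARG00000068493 (chromosome 15), one of a pair that the deposited table calls cyp2y3. The reference table names this row si:zfos-411a11.2. It was at 11.8 and 9.92 TPM in controls and at 3.21 and 1.19 TPM in exposed larvae, 139 and 89 reads against 47 and 11 reads. All exposed values were below all control values, but the exposed libraries differed between themselves more than the controls did. The log2 fold change was -1.96 (SE 0.33, adjusted p = 0.016). Dropping control replicate 1 ended the call (0.165), as did dropping control replicate 2 (0.126).

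The other cyp2y3 row (ENSDARG00000101423, chromosome 15) was more abundant and changed little, at 38.98 and 34.9 TPM in controls and at 35.6 and 37.7 TPM in exposed larvae. The groups overlapped, and its log2 fold change was -0.01 (95% confidence interval -0.24 to 0.22). The changed row made up 23.2% and 22.1% of the pair's summed level in controls and 8.28% and 3.05% after exposure. Reads that match both rows could not be separated here, since the sources used here do not give how such reads were counted.

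The gene cyp2p9 (ENSDARG00000022631, chromosome 20) belongs to a fish subfamily related to the mammalian CYP2J enzymes, which make epoxides of polyunsaturated fatty acids. It was at 4.13 and 4.53 TPM in controls and at 1.83 and 1.86 TPM in exposed larvae, 102 and 85 reads against 56 and 36 reads. The groups were well apart, with a log2 fold change of -0.91 (SE 0.21, adjusted p = 0.048). Its neighbours in the subfamily, cyp2p6, cyp2p7, cyp2p8 and cyp2p10, had overlapping groups and log2 fold changes between -0.07 and -0.05. The share of cyp2p9 in the summed level of the 5 genes was 12.1% and 12.9% in controls and 5.97% and 5.89% after exposure. The call was lost without any 1 library (adjusted p between 0.107 and 0.278), and with the replicate number as a block, which is covered with the other settings.

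**Figure D3:**
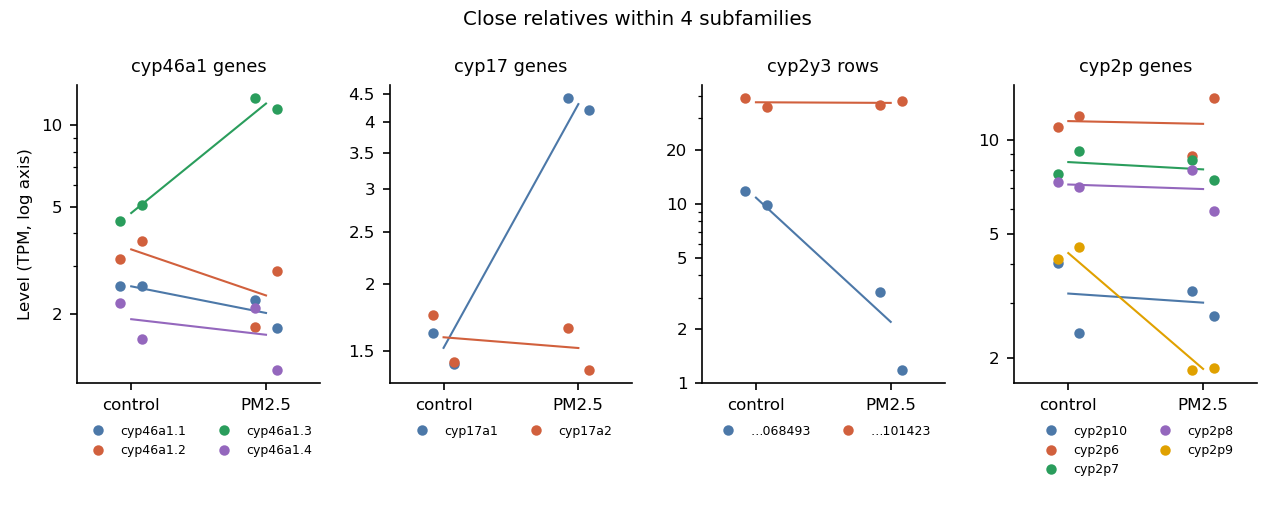
Points give the level in TPM (vertical log axis) of close relatives in the 2 control and 2 PM2.5 libraries, and lines join the group means, for the cyp46a1, cyp17, cyp2y3 and cyp2p rows. In each panel a single line is steep (cyp46a1.3, cyp17a1, cyp2y3 ENSDARG00000068493 and cyp2p9), while the other rows have log2 fold changes between -0.44 and -0.01.

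Position was a feature that the choice of genes did not use. By gene ID 76 of the 81 rows matched the RefSeq gene table (assembly GRCz12tu), and 47 of them lay in 8 runs of at least 3 P450 genes with no more than 2 other coding genes between neighbours. The longest run, on chromosome 20, holds cyp2n13, the cyp2ad genes, cyp2v1, the cyp2p genes and cyp2j20. Of its 11 genes 1 was past the threshold, against 11.1% of all tested genes. In 8 the groups overlapped, where 56.3% of all tested genes had groups apart. Without adjustment 1 was higher and 1 lower at p under 0.05 in limma, against 19.3% and 7.83% of all tested genes. With voom 1 was called higher and 1 lower, against 12.2% and 5.67% of all genes in that fit. Log2 fold changes ran from -0.91 (cyp2p9) to 0.50 (cyp2v1). The run on chromosome 23 holds cyp2aa genes and cyp2ae1, with 9 tested, none past the threshold and a range from -0.55 (cyp2aa4) to 0.41 (cyp2aa1). The cyp2k run on chromosome 3 had 5 tested, none past the threshold and a range from -0.06 to 0.43 (cyp2k18). Without adjustment 1 higher and 1 lower gene of the chromosome 23 run and 1 higher gene of the cyp2k run had p under 0.05, against 27.2% of all tested genes, and voom called none in either. Neighbouring genes had log2 fold changes of both signs in these 3 runs, though in the cyp2k run only cyp2k19 (-0.06) was below 0. Both signs also occurred in the cyp46a1 run (-0.44 to 1.19) and the cyp27a run (-0.74 to 0.28). The 3 tested genes of the cyp3c run on chromosome 3 were all above 0 (0.03 to 0.86). The 3 tested genes of the cyp2x run on chromosome 25 were all below 0 (-0.44 to -0.17). The cyp8b run had 1 tested gene.

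Among the cyp2 genes not called, cyp2v1 came closest to the threshold. It was at 10.3 and 11.1 TPM in controls and at 16.1 and 15.0 TPM after exposure (log2 fold change 0.50, adjusted p = 0.055). With a minimum mean of 5 TPM it was called higher (0.044). By contrast cyp2ad3, the second most abundant P450 gene, was at 88.2 and 81.5 TPM in controls and at 99.8 and 92.3 TPM after exposure. The groups did not overlap, and the log2 fold change was 0.18 (95% confidence interval -0.01 to 0.36). The abundant genes cyp2ad2, cyp2n13 and cyp2aa6 had overlapping groups, with log2 fold changes of 0.00, -0.18 and -0.01. The annotated pseudogene cyp2aa6 had means of 16.5 ± 0.450 TPM without exposure and 16.4 ± 0.784 TPM with it.

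The 4 cyp4 genes encode hydroxylases that act mainly on fatty acids and eicosanoids. None passed the threshold in limma, against 11.1% of all tested genes. However, 2 were lower at an unadjusted p under 0.05 in limma, against 7.83% of all tested genes. Voom called 1 lower, against 5.67% of all genes in that fit. The gene cyp4v8 was closest, at 16.7 and 17.4 TPM in controls and at 10.7 and 12.4 TPM after exposure (log2 fold change -0.53, adjusted p = 0.051). TMM-type rescaling (0.028) and quantile normalization (0.025) each put it past the threshold as lower. The gene cyp4t8 was at 16.1 and 17.5 TPM in controls and at 12.4 and 13.7 TPM after exposure (-0.34, adjusted p = 0.143). Both lay lower in both exposed libraries, while cyp4v7 overlapped. With few reads, cyp4f3 was at 1.97 and 0.452 TPM in controls and at 2.01 and 2.73 TPM after exposure (0.69, adjusted p = 0.334). Its exposed libraries lay above both controls, which differed widely.

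**Figure D4:**
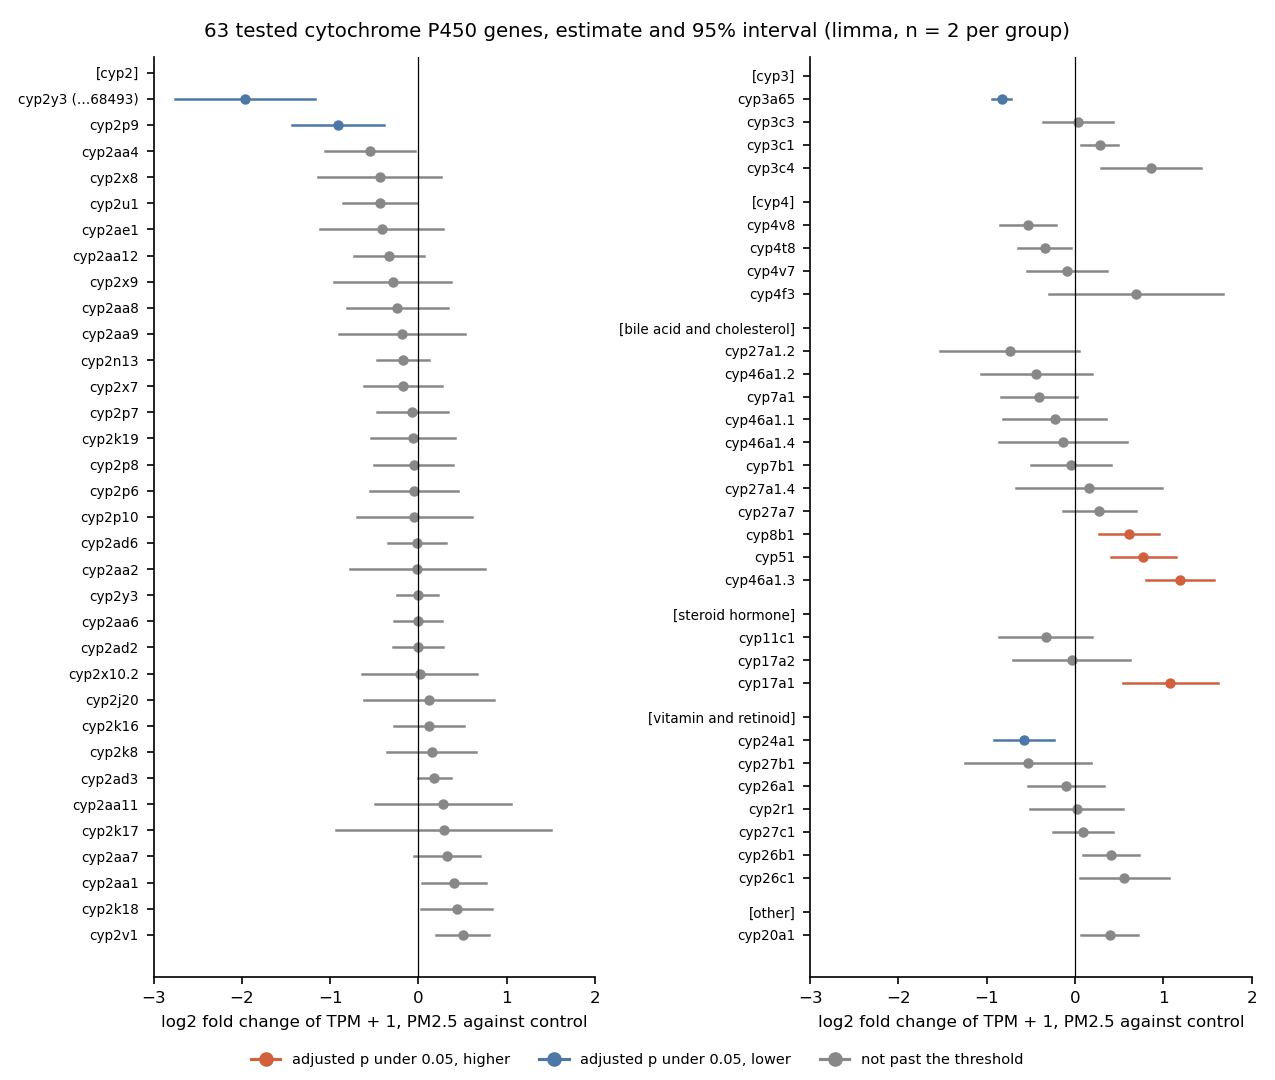
Points are log2 fold changes of TPM + 1 (horizontal axis, PM2.5 against control) with 95% confidence intervals from limma for the 63 tested P450 genes, sorted within groups. The 4 genes past the threshold as lower and the 4 as higher are coloured, and the interval of cyp3a65 (-0.94 to -0.72) is the narrowest of the 63.

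Genes of cholesterol and bile acid metabolism held 3 of the 4 genes called higher, among 11 tested of 14 rows, and none was called lower. Over all tested genes 8.46% were called higher and 2.62% lower. Of the 11, 5 had log2 fold changes above 0 and 6 below, with a median of -0.04. The libraries were fully apart in 4 that were higher and 4 that were lower, against 36.6% and 19.7% of all tested genes. The gene cyp46a1.3 (ENSDARG00000089177, chromosome 20) belongs to the cholesterol hydroxylases that in mammals clear cholesterol from neurons. It was at 4.41 and 5.05 TPM in controls and at 12.6 and 11.5 TPM in exposed larvae. The exposed libraries were above both controls by a wide margin, with a 2.55-fold higher mean, a log2 fold change of 1.19 (SE 0.16) and an adjusted p of 0.0070. The call was lost without any 1 library (adjusted p between 0.052 and 0.091). The neighbouring genes cyp46a1.1, cyp46a1.2 and cyp46a1.4 had log2 fold changes of -0.23, -0.44 and -0.13 and did not pass. The share of cyp46a1.3 in the summed level of the 4 genes was 35.7% and 39.1% in controls and 67.3% and 66.0% after exposure.

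The gene cyp51 (ENSDARG00000042641, chromosome 19) encodes lanosterol demethylase, an enzyme of cholesterol synthesis. It was at 6.98 and 8.51 TPM in controls and at 13.3 and 14.5 TPM in exposed larvae, with no overlap. The log2 fold change was 0.77 (SE 0.15, adjusted p = 0.027), and the call was lost without any 1 library (0.106 to 0.184). Of 25 tested other genes of cholesterol synthesis and uptake, 3 were higher and 1 lower, against 8.46% and 2.62% of all tested genes. Of the enzymes that act after Cyp51, nsdhl and msmo1 rose (log2 fold changes 0.84 and 0.55), and the LDL receptor gene ldlrb rose too (1.20). Among others of these enzymes that did not pass, tm7sf2, of the next step, was at -0.29 (adjusted p = 0.301), dhcr7 at -0.19, sc5d at 0.01, ebp at 0.16 and hsd17b7 at 0.34. The call of msmo1 was lost after TMM-type rescaling (adjusted p = 0.065) and quantile normalization (0.077). The gene insig1, whose protein holds back cholesterol synthesis, fell from 18.7 ± 1.32 to 10.7 ± 1.58 TPM (-0.76). Of the genes of the rate-limiting reductase, hmgcra (mean 9.29 TPM) stood at -0.38 (adjusted p = 0.223). The more abundant hmgcrb (mean 17.3 TPM) stood at 0.07, with overlapping groups. The list's median was 0.20.

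Bile acid synthesis starts with cyp7a1 on the classical route, and cyp8b1 sets how much cholic-type bile acid or bile alcohol is made. The gene cyp8b1 (ENSDARG00000053068, chromosome 2) was at 6.93 and 7.04 TPM in controls and at 11.6 and 10.8 TPM in exposed larvae. All exposed values were above all control values, with a log2 fold change of 0.61 (SE 0.14, adjusted p = 0.043). The call was lost after TMM-type rescaling (0.063) and quantile normalization (0.076), and without any 1 library (0.108 to 0.224). Its close copies cyp8b2 and cyp8b3 were below 1 TPM. The gene cyp7a1 was at 10.2 and 12.9 TPM in controls and at 9.30 and 7.62 TPM after exposure (-0.41 on the log2 scale, interval -0.83 to 0.02, adjusted p = 0.199). Its groups did not overlap, but the gap between their nearest libraries was smaller than the distance between the controls.

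The remaining sterol hydroxylases did not pass. The oxysterol hydroxylase gene cyp7b1 had overlapping groups (-0.04), and cyp27a7, a relative of the mitochondrial sterol hydroxylase CYP27A1, had a log2 fold change of 0.28. The low gene cyp27a1.2 was at 1.42 and 1.98 TPM in controls and at 0.439 and 0.799 TPM after exposure, 34 and 36 reads against 13 and 15 reads (-0.74, adjusted p = 0.203). Among 13 tested genes of bile acid synthesis and transport outside the P450 family, slc10a2, the intestinal bile acid uptake transporter, rose from 7.71 ± 0.909 to 16.9 ± 2.72 TPM. Over all tested genes 8.46% were called higher and 2.62% lower. The sterol carrier gene scp2a fell (-0.36), and the other 11 of the 13 did not pass as deposited. Among these, slc27a2a, a fatty acid and bile acid activating enzyme gene, was called lower after TMM-type rescaling (adjusted p = 0.041) and quantile normalization (0.020).

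Of the 8 genes of steroid hormone synthesis, 5 had means below 1 TPM: cyp11a1 and cyp11a2, which cleave the cholesterol side chain, cyp21a2, and the aromatases cyp19a1a and cyp19a1b. Of the 3 tested, cyp17a1 (ENSDARG00000033566, chromosome 13) rose. It encodes the hydroxylase and lyase that leads towards cortisol and the sex steroids. It was at 1.62 and 1.42 TPM in controls and at 4.43 and 4.21 TPM in exposed larvae, 48 and 32 reads against 163 and 98 reads. The groups were far apart relative to their spread, with a 2.84-fold higher mean, a log2 fold change of 1.08 (SE 0.22) and an adjusted p of 0.032. The call was lost without any 1 library (0.094 to 0.187).

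Its relative cyp17a2, which in fish has the hydroxylase but little lyase activity, was at 1.75 and 1.43 TPM in controls and at 1.65 and 1.38 TPM after exposure, with overlapping groups. The share of cyp17a1 in the pair went from 48.0% and 49.8% in controls to 72.8% and 75.3% in exposed larvae. The gene cyp11c1, which completes cortisol synthesis, was at 4.02 and 5.49 TPM in controls and at 3.30 and 3.76 TPM after exposure (-0.33, adjusted p = 0.382). The cholesterol carrier gene star was at 7.40 and 5.86 TPM in controls and at 4.69 and 6.19 TPM after exposure, and its groups overlapped. The side-chain cleavage gene cyp11a2 was at 0.210 and 1.04 TPM in controls and at 0.509 and 0.669 TPM after exposure, 4 and 15 reads against 12 and 10 reads. Of 18 tested steroid synthesis and action genes outside the P450 family, limma called none as deposited and 1 as lower after each rescaling. Over all tested genes 8.46% were called higher and 2.62% lower as deposited. Without adjustment 2 of the 18 were higher and 1 lower at p under 0.05, against 19.3% and 7.83% of all tested genes.

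Vitamin D and retinoid enzymes contributed 7 genes, all tested. The gene cyp24a1 (ENSDARG00000103277, chromosome 6) encodes the hydroxylase that inactivates vitamin D hormone and is itself induced by the vitamin D receptor. It was at 26.02 and 31.5 TPM in controls and at 17.3 and 20.5 TPM in exposed larvae. Both exposed libraries lay below both controls, but the spread within groups was wide, and the log2 fold change of -0.58 (SE 0.14) had an adjusted p of 0.04998. That value is at the threshold, and the call was lost with a pseudocount of 0.1 TPM (0.051) and without any 1 library (0.094 to 0.282). The activating enzyme genes cyp27b1 and cyp2r1 had log2 fold changes of -0.53 (adjusted p = 0.302) and 0.02 (0.969).

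Of 9 tested partner genes of vitamin D, 2 were higher and 1 lower, against 8.46% and 2.62% of all tested genes. The gene gc, which encodes the vitamin D binding protein of plasma, rose from 722 ± 13.9 to 1131 ± 5.15 TPM (log2 fold change 0.65, adjusted p = 0.00035) and was called whichever library was dropped. The calcium channel gene trpv6 rose from 2.02 ± 0.174 to 6.59 ± 0.238 TPM (1.33, adjusted p = 0.010), and the parathyroid hormone gene pth4 fell (-1.95). The calls of trpv6 and pth4 were lost in each of those 4 fits. The receptor genes vdra and vdrb had log2 fold changes of -0.56 (adjusted p = 0.172) and -0.30 (0.340).

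The cyp26 enzymes degrade retinoic acid, a vitamin A derivative that patterns the embryo. The gene cyp26a1 was at 12.0 and 8.86 TPM in controls and at 10.0 and 9.01 TPM after exposure, with overlapping groups. The gene cyp26b1 was at 10.2 and 11.2 TPM in controls and at 13.8 and 15.2 TPM after exposure (0.41, adjusted p = 0.106), and cyp26c1 at 4.40 and 4.40 TPM in controls and at 5.81 and 8.28 TPM after exposure (0.56, adjusted p = 0.152). Both lay higher in both exposed libraries without passing. The gene cyp27c1, which in zebrafish makes the dehydro form of vitamin A in the pigment epithelium, was at 8.45 and 8.19 TPM in controls and at 9.25 and 8.61 TPM after exposure (0.09). Among 33 tested retinoid genes 2 were higher and 1 lower, against 8.46% and 2.62% of all tested genes. The lower one was rbp2a, an intestinal retinol binding protein gene (378 ± 13.4 to 244 ± 3.19 TPM). The higher ones, ttr and the retinol dehydrogenase gene rdh5, were not past the threshold after either rescaling (adjusted p between 0.060 and 0.080). The retinol dehydrogenase gene rdh12 was then called lower (0.037 and 0.029), and quantile normalization called the plasma retinol carrier gene rbp4 higher (0.041). The orphan P450 gene cyp20a1 was at 12.8 and 14.8 TPM in controls and at 17.2 and 19.5 TPM after exposure (0.39, adjusted p = 0.121).

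P450 enzymes need electrons, heme and transcriptional regulators, and these partners moved unevenly. The reductase genes pora and porb, the main electron donors of microsomal P450 enzymes, had log2 fold changes of 0.07 each, did not pass, and were below 0 after TMM-type rescaling and quantile normalization. Against 8.46% higher and 2.62% lower over all tested genes, none of 14 tested electron donor genes was lower and 2 were higher. They were the cytochrome b5 gene cyb5b (11.8 and 13.5 TPM in controls, 23.2 and 25.0 TPM after exposure) and its reductase gene cyb5r3 (13.6 ± 1.48 to 23.1 ± 3.07 TPM), whose call was lost after TMM-type rescaling (adjusted p = 0.056) and quantile normalization (0.064). All 14 had a log2 fold change above 0 as deposited, as did 12207 of all 20874 tested genes. The median of the 14 was 0.21, but TMM-type rescaling put 3 below 0 and quantile normalization 4.

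The gene alas1, for the rate-limiting enzyme of heme synthesis in most tissues, was at 294 and 281 TPM in controls and at 531 and 504 TPM in exposed larvae. The groups were far apart, with a log2 fold change of 0.84 (SE 0.05, adjusted p = 0.00045), and the call stood whichever library was dropped. The erythroid form alas2 and the later enzyme cpox also rose (0.67 and 1.03). Of 17 tested heme genes limma called 3 higher and none lower as deposited, against 8.46% and 2.62% of all tested genes. Without adjustment 7 were higher and 3 lower, against 19.3% and 7.83%. The heme oxygenase gene hmox1a was closest to a lower call, at 14.3 and 12.2 TPM in controls and 8.23 and 5.19 TPM after exposure (-0.91, adjusted p = 0.051). Another, hmox2b, was past the threshold as lower after quantile normalization (0.047). The median of the list was -0.02.

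Limma called 2 higher and none lower among 32 tested receptors and liver transcription factors that regulate P450 genes. Of all tested genes 8.46% were higher and 2.62% lower. Without adjustment the list had 6 higher and 1 lower, against 19.3% and 7.83% of all tested genes. The genes called higher were cebpb (111.5 ± 2.67 to 150.6 ± 0.819 TPM) and foxa3 (3.36 ± 0.750 to 7.45 ± 0.409 TPM). After quantile normalization foxa3 was not past the threshold (adjusted p = 0.052), and arnt2, a partner of the aryl hydrocarbon receptor family, was called lower (0.046). The pregnane X receptor gene nr1i2, a xenobiotic sensor that regulates cyp3 genes, was at 8.98 and 9.48 TPM in controls and at 12.3 and 13.8 TPM after exposure (0.46, adjusted p = 0.088). The aryl hydrocarbon receptor gene ahr2 stood at 0.53 (adjusted p = 0.052). Both were higher in both exposed libraries without passing, in the samples in which cyp3a65 fell.

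Among 14 tested genes of epoxide and eicosanoid metabolism, 4 were higher and none lower, against 8.46% and 2.62% of all tested genes. The median log2 fold change was 0.36, against 0.07 over all tested genes. Prostacyclin synthase, ptgis, itself a P450 enzyme whose symbol lies outside the cyp names, rose from 3.38 ± 0.615 to 8.81 ± 1.001 TPM (1.17, adjusted p = 0.016). Thromboxane synthase, tbxas1, the other such P450, had overlapping groups (0.01). The cyclooxygenase gene ptgs2b (0.88), the lipoxygenase gene alox12 (0.96) and the epoxide hydrolase gene ephx1 (0.57) also rose. After quantile normalization ephx1 was not past the threshold (adjusted p = 0.055). Of the partner genes named as called, only alas1, gc and rbp2a stood whichever library was dropped, ldlrb stood in 3 of these fits, and the others in at most 1.

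**Figure D5:**
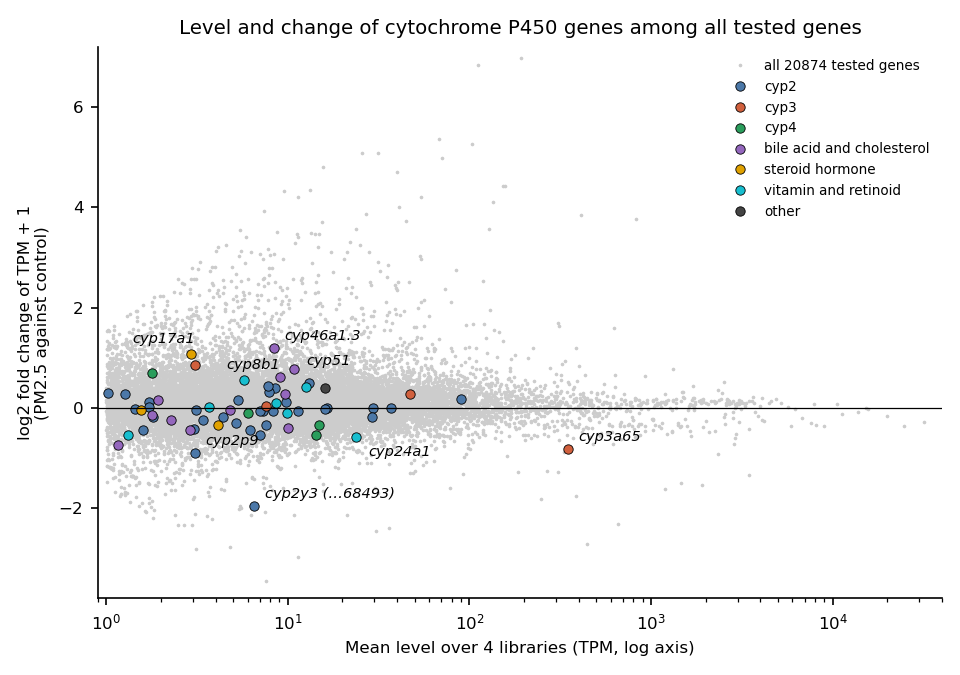
The horizontal log axis is the mean level over the 4 libraries in TPM and the vertical axis the log2 fold change of TPM + 1, with grey dots for all 20874 tested genes and coloured points for the 63 P450 genes. Most P450 genes lie within the grey band around 0, and cyp3a65 stands at the right with a mean of 348 TPM and a log2 fold change of -0.83.

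The 18 P450 genes below the minimum had means from 0 to 0.982 TPM and at most 105 reads over the 4 libraries. They were cyp2aa3, cyp2k20, cyp2k21, cyp2k22, both cyp2k6 rows, a second cyp2x10.2 row (ENSDARG00000068283), cyp2x6, cyp2x12, the second cyp3c3 row, cyp39a1, cyp8b2, cyp8b3 and the 5 steroid genes named above. The gene cyp2k22 was listed at 0 in all 4 libraries. The brain aromatase gene cyp19a1b, annotated as a pseudogene, was at 0.159 and 0.656 TPM in controls and at 0.475 and 0.721 TPM in exposed larvae. The row of cyp2k6 that the reference table calls cyp2k31 (ENSDARG00000009874) had 1 and 0 reads in controls and 28 and 5 reads in exposed larvae. When the minimum level was removed, which still leaves out cyp2k22, none of these genes was called. What that fit can detect at these read numbers was not tested.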

How the data were processed

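Whole-larva RNA was sequenced in 2 control and 2 PM2.5 libraries, grouped by their titles. Per the submitters' processing notes, cutadapt 1.18 and STAR 2.6.1c were used with the build GRCz11. Not given in the sources used here are the counter, its strand setting, the gene models and lengths, and how multi-mapping reads were treated. The labels name more than 1 RNA kit and sequencer. The authors deposited TPM values. Of 32925 rows, 405 repeated a gene ID with the same values and were dropped.

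A low TPM value steps by what 1 read contributes, and the ratio of these steps between libraries recurs across genes. Read numbers within 0.002 of a whole number were found for 25329 of 25331 genes above 0 in at least 2 libraries, up to a factor common to a gene's libraries. They gave approximate depths of 18936644 and 14723034 reads in controls and 23563056 and 15137088 in PM2.5 libraries, and precision for low genes is limited by them.

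In R 4.3.3, limma 3.58.1 (two-sided, eBayes with a trend on mean level, 2 residual and 4.15 prior degrees of freedom) was fitted to log2(TPM + 1) of genes averaging 1 TPM or more. P-values were adjusted by Benjamini-Hochberg, with a threshold of 0.05. Fold changes on this scale understate those of low genes. The fit was tested on simulated data. The members and lists were chosen with earlier results of these data known. Library values are given in full for members past the threshold, the 2 most abundant of each group, and cyp2y3, cyp2y4 (not analysed here), cyp3a65, cyp24a1, cyp26a1, cyp11a2, cyp17a1, cyp19a1b, cyp51, cyp7a1 and cyp27c1. List genes were named where past the threshold, with the smallest p of their list, or as por, nr1i2, ahr2, vdra, hmgcra, alas1, star or fabp10a. The full values of other members were chosen after their values were seen. So was the naming of vil1, vdrb, tbxas1, mc2r, fdx1b, slc27a2a, rdh12, rbp4, arnt2, hmgcrb, hmox1a, hmox2b and the uncalled enzymes named after Cyp51. Alternatives covered the pseudocount, the minimum level, rescaling, the trend, a replicate block, dropping each library and, chosen after seeing the data, voom.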

Additional observations from a re-analysis of the deposited data

How the results depend on the processing

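With TPM as deposited 2313 genes were past the threshold, 76.4% of them higher. After TMM-type rescaling this share was 63% and after quantile normalization 57.9%, and the median over all genes moved by -0.07 and -0.12 on the log2 scale. After either rescaling 3 P450 genes were higher and 5 lower. The signs of 3 and 5 of the 63 P450 genes turned, none of them past the threshold in any of these fits. With a minimum mean of 5 TPM, cyp2v1 was gained as higher and cyp4v8 as lower, and cyp2p9 and cyp17a1 were below it. Without a minimum level, 1 P450 gene was higher and 2 lower. Without the intensity trend, 770 genes in all, and 2 P450 genes in each direction, were past the threshold. The calls of cyp24a1, cyp8b1, cyp51 and the cyp2y3 row ENSDARG00000068493 (adjusted p = 0.074 for that row) were then lost. With voom on the read numbers, chosen after seeing the data, 3714 genes were called, among them 7 P450 genes as higher (the 4 named and cyp26b1, cyp3c4 and cyp2v1) and 5 as lower. Leaving out 1 library gave 377 to 857 calls in all, 0 P450 genes as higher and 1 to 2 as lower. These fits have fewer libraries, and the cause of the lower number of calls was not tested. The labels give same-numbered replicates only a common number, and whether they share a clutch or exposure is not stated. The correlation of their deviations was 0.0654, which cannot show whether they were paired. With the replicate block 2853 genes were called, with 4 P450 genes higher and 4 lower, where cyp4v8 took the place of cyp2p9.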
